A study of Mus musculus with 9 samples.

Results

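Expression of 10 genes of the VEGF and angiopoietin systems was followed in whole mouse lung under room air, chronic hypoxia and chronic hypoxia with parathyroid hormone (PTH). They were taken by gene symbol, and all 10 were found among the 53342 genes of the deposited table and passed the filter on low counts. The ligands were Vegfa, Vegfb, Pgf, Angpt1 and Angpt2, and the receptors Kdr, Flt1, Nrp1, Tek and Tie1. Poly(A) RNA of lungs from C57BL/6 mice was sequenced in 9 libraries, 3 per group. Titles mark the normoxia and hypoxia samples WT and the others PTH, with no other genotype given. The normoxia group comprised replicates 2, 3 and 5. The hypoxia group, replicates 1, 2 and 5, was kept at 10% oxygen for 3 weeks, and the hypoxia with PTH group, replicates 3, 4 and 5, was kept in the same way and injected with PTH residues 1 to 34 at 40 µg/kg per day. Saline was given to a sham group, but the labels do not say which samples it comprises, and they give neither age nor sex. They do not say that each sample came from its own animal, and p-values cover only sample-to-sample spread, which may be technical.

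The VEGF ligands act on endothelial cells through receptor tyrosine kinases. VEGF-A signals mainly through the kinase encoded by Kdr, while the product of Flt1 binds VEGF-A tightly with weak kinase activity and, in a secreted form, acts as a decoy. Of the receptor kinases, placenta growth factor and VEGF-B bind the Flt1 product, and neuropilin-1 is a co-receptor without a kinase domain. The angiopoietins act on the receptor encoded by Tek: angiopoietin-1, made by mural and other mesenchymal cells, activates it and keeps vessels quiescent, while angiopoietin-2, made by endothelial cells, is a context-dependent antagonist. Tie1 encodes a related receptor that modulates the Tek product. In the lung, alveolar epithelium, type 1 cells above all, is a main source of VEGF-A for the capillaries beside it. In many cell types transcription of Vegfa, Flt1 and Angpt2 is raised by acute hypoxia through HIF factors.

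The starts of 3 VEGF genes are shown because their mean levels in hypoxia lay below normoxia (Flt1), above it (Vegfb) and close to it (Vegfa), as described further on. Each line gives the 250 bases before the gene start of RefSeq, build GRCm38.p6 (the assembly of mm10), minus strand, 5′ to 3′, in windows free of annotated exons. Capitals mark ACGTG or GCGTG, the core letters that HIF factors bind, and TGACGTCA, the full cAMP response element, on either strand. The windows are chr5:147726012-147726261 for Flt1, chr19:6987652-6987901 for Vegfb and chr17:46032378-46032627 for the distal of the RefSeq starts of Vegfa.
Flt1: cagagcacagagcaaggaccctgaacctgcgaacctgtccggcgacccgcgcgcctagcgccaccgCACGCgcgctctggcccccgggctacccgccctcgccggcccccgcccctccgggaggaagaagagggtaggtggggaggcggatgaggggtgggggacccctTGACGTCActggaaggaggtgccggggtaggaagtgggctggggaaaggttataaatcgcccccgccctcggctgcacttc
Vegfb: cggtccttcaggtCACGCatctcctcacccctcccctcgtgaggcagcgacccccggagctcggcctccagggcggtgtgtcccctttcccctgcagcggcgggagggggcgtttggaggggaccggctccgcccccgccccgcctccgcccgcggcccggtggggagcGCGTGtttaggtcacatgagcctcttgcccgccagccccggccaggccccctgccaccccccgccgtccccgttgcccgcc
Vegfa: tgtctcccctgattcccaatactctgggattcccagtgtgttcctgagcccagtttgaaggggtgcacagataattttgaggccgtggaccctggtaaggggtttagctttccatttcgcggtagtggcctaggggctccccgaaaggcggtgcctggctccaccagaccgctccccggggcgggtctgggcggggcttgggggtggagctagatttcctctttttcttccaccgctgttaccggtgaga

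The genes lie, in mm10, at chr17:46016993-46032369 (Vegfa), chr19:6982473-6987651 (Vegfb), chr12:85166635-85177790 (Pgf), chr5:75932827-75978458 (Kdr), chr5:147561604-147726011 (Flt1), chr8:128358604-128503363 (Nrp1), chr15:42424723-42676977 (Angpt1), chr8:18690263-18741562 (Angpt2), chr4:94739289-94874976 (Tek) and chr4:118471191-118490061 (Tie1). In the windows Flt1 held 1 copy of GCGTG, Vegfb 2 and this window of Vegfa none of the searched letters. The full cAMP response element in the Flt1 window began 81 bases before the gene start, and it was searched for after the sequence had been seen. It occurs in the same 250 bases of 1.77% of 27025 genes with an entry. RefSeq entries matched 8 of the 10 genes, all but Angpt1 and Angpt2, in 10 windows. ACGTG or GCGTG was found in at least 1 window of 6 of these 8, Vegfa in its second window and Vegfb, Pgf, Kdr, Flt1 and Nrp1, against 41.5% of all genes with an entry. These are matches of letters in GC-rich windows, from 51.2% GC in Tek to 76.4% in Vegfb, and no binding was measured.

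Libraries held 40234030 to 58391086 counts in total. The 10 genes were measured from 287 counts (Pgf, normoxia replicate 2) upward, so counting error contributed little to the spread between samples. Lung identity was clear from the summed level of 9 type 2 alveolar markers, 22484 to 30541 CPM per library (CPM being counts scaled to a common library size). The 15 pan-endothelial markers, all tested and none at 0 in any library, summed to 4718 to 6027 CPM in normoxia, 4398 to 5932 CPM in hypoxia and 4855 to 5936 CPM in hypoxia with PTH, and 7 of the 15 had log2 fold changes above 0 in hypoxia, with a median of -0.017. Of these Cd34 rose (0.90, edgeR adjusted p = 0.00863), and of 8 artery markers Cxcl12, Gja4 and Sox17 rose (1.86, 1.32 and 0.81, edgeR adjusted p = 0.00599, 0.0275 and 0.0279). The other 5 artery markers had log2 fold changes below 0 in hypoxia, with 0 called lower by edgeR, and the median of the 8 was -0.23. A clock score was taken as the log2 level of Dbp and related output genes minus that of Arntl and other activator genes. It was high, 2.40 to 3.22, in normoxia replicates 2 and 3 and hypoxia replicates 1 and 2. In the other 5 libraries, which include all those with PTH, it was low, -2.52 to -1.68. Heart muscle markers summed to between 52.3 CPM (PTH replicate 5) and 1676 CPM (hypoxia replicate 5). In whole lung, fewer cells of a type and less RNA per cell cannot be told apart.

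On the deposited TPM scale, which corrects for transcript length and allows comparison between genes, Vegfa was the most abundant of the 10, at a mean of 604 TPM over the 9 libraries and a range of 531 to 764. The lowest Vegfa library lay above the highest library of the next gene, Tie1 (mean 228, range 169 to 263 TPM). Tek followed at 207 TPM (174 to 251), not distinct from Tie1 in range. Kdr (86.8 TPM, 72.0 to 107) and Flt1 (71.5 TPM, 53.9 to 104) overlapped each other and lay below Tek. Angpt1 (61.3 TPM, 50 to 69.5) and Nrp1 (54.8 TPM, 43.6 to 64.4) came next and overlapped Flt1. Vegfb had a mean of 38.1 TPM (25.6 to 46.6). The ligands with the lowest levels were Angpt2 (13.7 TPM, 10.0 to 18.4), below every Vegfb library, and Pgf (10.2 TPM, 4.98 to 13.3), which overlapped Angpt2. The spread within groups, as a coefficient of variation of CPM, was smallest for Angpt1 at 5.01% and largest for Angpt2 at 19.5%.

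**Figure D1:**
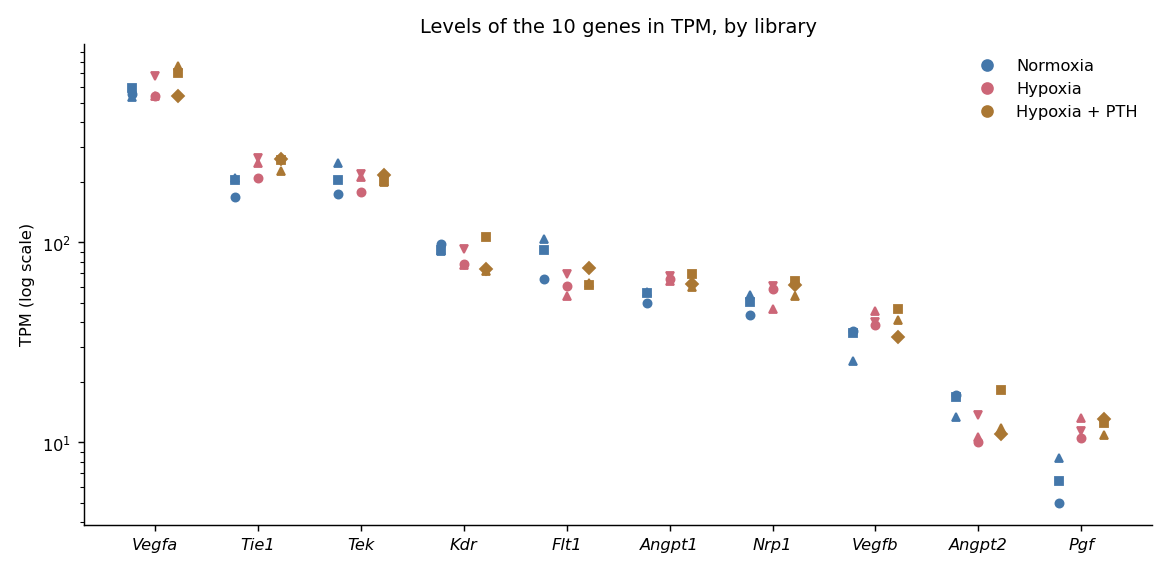
Deposited level of each gene in TPM on a log axis, genes ordered by their mean over 9 libraries, with 1 point per library, colour for the group and shape for the replicate number. Vegfa, at 531 to 764 TPM, stands above all others, and Angpt2 and Pgf, at 4.98 to 18.4 TPM, stand below.

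Hypoxia was set against normoxia to ask how these vascular genes differ after 3 weeks at low oxygen. Vegfa itself had mean levels of 894 and 888 CPM, while Pgf and Angpt1 were higher in every hypoxia library than in every normoxia library, in CPM and in TPM. Flt1, Kdr and Angpt2 were lower in every hypoxia library in CPM, but their groups overlapped in TPM. With edgeR's quasi-likelihood test, 0 of the 10 genes passed an adjusted p of 0.05 over all 19640 genes tested, of which 0.57% passed (0.412% higher and 0.158% lower). At an unadjusted p under 0.05 there were 5 of the 10, against 11.8% of all genes. In CPM the groups did not overlap for 6 of the 10, 3 higher and 3 lower, against 17.1% of all genes (8.56% higher and 8.57% lower). In TPM they did not overlap for 4, all higher (Vegfb, Pgf, Angpt1 and Tie1), against 15.5% of all genes. The median absolute log2 fold change was 0.24 over the 10 genes and 0.15 over all genes. The 10 genes were chosen with earlier results of these data known, so these counts and medians are descriptions and not independent evidence. DESeq2, which called 791 genes (4.03%) where edgeR called 112, called 2 of the 10, Pgf and Flt1. Limma-voom called 0 of the 10 and 0.54% of all genes.

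Among the VEGF ligands, Vegfa measured 878, 943 and 844 CPM in the normoxia libraries, given here and below in the order of their replicate numbers, and 1010, 844 and 829 CPM in the hypoxia libraries. The groups overlapped almost fully. The log2 fold change was 0.0099 (SE 0.13, 95% confidence interval -0.28 to 0.30, edgeR adjusted p = 0.99). Summed type 1 alveolar markers, 11 of 11 tested with 5 above 0, overlapped too, at 8172 to 8911 CPM in normoxia and 8006 to 9485 CPM in hypoxia. Vegfb, whose protein is linked to fatty acid handling and the coronary vasculature, stood at 21.6, 21.1 and 15.3 CPM in normoxia and 22.5, 22.7 and 26.3 CPM in hypoxia. The lowest hypoxia library lay just above the highest normoxia library, with a log2 fold change of 0.30 (SE 0.15, -0.037 to 0.64, edgeR adjusted p = 0.493). Heart muscle markers, 10 of 10 tested with 8 above 0, summed to 936, 509 and 268 CPM in normoxia. In hypoxia they summed to 445, 1029 and 1676 CPM, and the part of heart tissue in the Vegfb values was not tested.

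Pgf encodes placenta growth factor, a ligand of the Flt1 product that is little used by resting adult vessels. It stood at 5.39, 6.92 and 9.04 CPM in normoxia and at 11.5, 11.2 and 13.8 CPM in hypoxia. All 3 hypoxia libraries were above all normoxia libraries, and both high and low clock scores gave this order. The log2 fold change was 0.78, a fold of 1.72 (SE 0.18, 0.37 to 1.19, unadjusted p = 0.00173, edgeR adjusted p = 0.102). DESeq2 called it (adjusted p = 0.0034), as did edgeR with the pan-endothelial score as a covariate (0.0487). With each library left out in turn the value stayed between 0.61 and 0.99, and the adjusted p between 0.0543 and 0.295.

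Among the VEGF receptors, Flt1 showed the largest difference. It stood at 332, 461 and 519 CPM in normoxia and at 326, 299 and 262 CPM in hypoxia. The hypoxia libraries were all lower in CPM, but in TPM hypoxia replicate 1, at 69.3, lay above normoxia replicate 2, at 66.0. In the libraries with a low clock score the values were 519 CPM in normoxia and 262 CPM in hypoxia, and in those with a high score 332 and 461 CPM in normoxia and 326 and 299 CPM in hypoxia. The log2 fold change was -0.57, a fold of 0.676 (SE 0.16, -0.93 to -0.20, unadjusted p = 0.0061, edgeR adjusted p = 0.17), and DESeq2 called it (adjusted p = 0.0256). General capillary markers were 8 of 8 tested, with 5 below 0 and none at 0. They summed to 3012 to 4972 CPM in normoxia and 2635 to 3035 CPM in hypoxia. Only 1 of them was called, Plvap (-2.70, edgeR adjusted p = 0.0029), with means of 569 CPM in normoxia and 87.7 CPM in hypoxia. The lower sum therefore reflects this gene in large part. The part of general capillary cells in the Flt1 values was not tested. Counts are per gene, so the secreted and membrane forms of its product were not separated.

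Kdr stood at 331, 309 and 304 CPM in normoxia and at 291, 260 and 250 CPM in hypoxia. The groups did not overlap in CPM, but in TPM hypoxia replicate 1, at 92.6, lay above normoxia replicates 3 and 5, at 91.8 and 90.7. The log2 fold change was -0.24 (SE 0.13, -0.53 to 0.054, edgeR adjusted p = 0.539). Kdr is most abundant in aerocytes, the large capillary cells of gas exchange. Markers of these cells, 10 of 10 tested with 6 below 0 and none at 0, summed to 2629 to 3116 CPM in normoxia and 2352 to 2616 CPM in hypoxia. Emcn rose (0.99, edgeR adjusted p = 0.00694) while Cyp4b1 and Ednrb fell (-0.86 and -0.66, edgeR adjusted p = 0.00756 and 0.0275). The part of these cells in the Kdr values was not tested. Nrp1, the co-receptor, stood at 159, 184 and 198 CPM in normoxia and 205, 211 and 164 CPM in hypoxia, which overlap (0.10, SE 0.12, -0.16 to 0.36, edgeR adjusted p = 0.812).

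The angiopoietin ligands lay on opposite sides of their normoxia levels. Angpt1 stood at 96.8, 109 and 109 CPM in normoxia and at 123, 125 and 120 CPM in hypoxia, so every hypoxia library was higher. The log2 fold change was 0.23 (SE 0.073, 0.063 to 0.39, unadjusted p = 0.0116, edgeR adjusted p = 0.228). Pericyte markers, 8 of 9 tested, were all above 0 in the same comparison, 3 of them called higher (Cspg4, Higd1b and Ndufa4l2), and summed to 506 to 611 CPM in normoxia and 738 to 846 CPM in hypoxia, none being at 0. Their part in the Angpt1 values was not tested.

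Angpt2 stood at 23.8, 23.3 and 18.3 CPM in normoxia and at 17.8, 13.6 and 14.1 CPM in hypoxia. The hypoxia libraries were all lower in CPM, but in TPM hypoxia replicate 1, at 13.8, lay above normoxia replicate 5, at 13.4. The log2 fold change was -0.52, a fold of 0.695 (SE 0.19, -0.95 to -0.096, unadjusted p = 0.0215, edgeR adjusted p = 0.297). Angpt2 lies within Mcph1, a gene on the opposite strand with a mean of 1.29 TPM against 13.7 TPM for Angpt2. In counts, which the tests use, the means were 185 for Mcph1 and 870 for Angpt2. Angpt1 overlaps Gm17473 on the opposite strand, at 0.393 TPM against 61.3 TPM, and Nrp1 overlaps Mir1903 on the same strand, at 0.145 TPM against 54.8 TPM. In the TPM means values at or below 1 TPM count as 0, so levels of the overlapping genes may be understated. The counter's use of strand is not given in the sources used here, so reads of overlapping genes may have been shared.

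Of the receptors of the angiopoietins, Tek stood at 306, 360 and 438 CPM in normoxia and at 360, 310 and 359 CPM in hypoxia. These overlapped (-0.10, SE 0.13, -0.38 to 0.18, edgeR adjusted p = 0.835). Tie1 stood at 309, 378 and 382 CPM in normoxia and at 450, 379 and 440 CPM in hypoxia, where replicate 2 lay within the normoxia range in CPM, while in TPM the groups did not overlap. Its log2 fold change was 0.25 (SE 0.11, 0.0092 to 0.48, unadjusted p = 0.0432, edgeR adjusted p = 0.402).

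**Figure D2:**
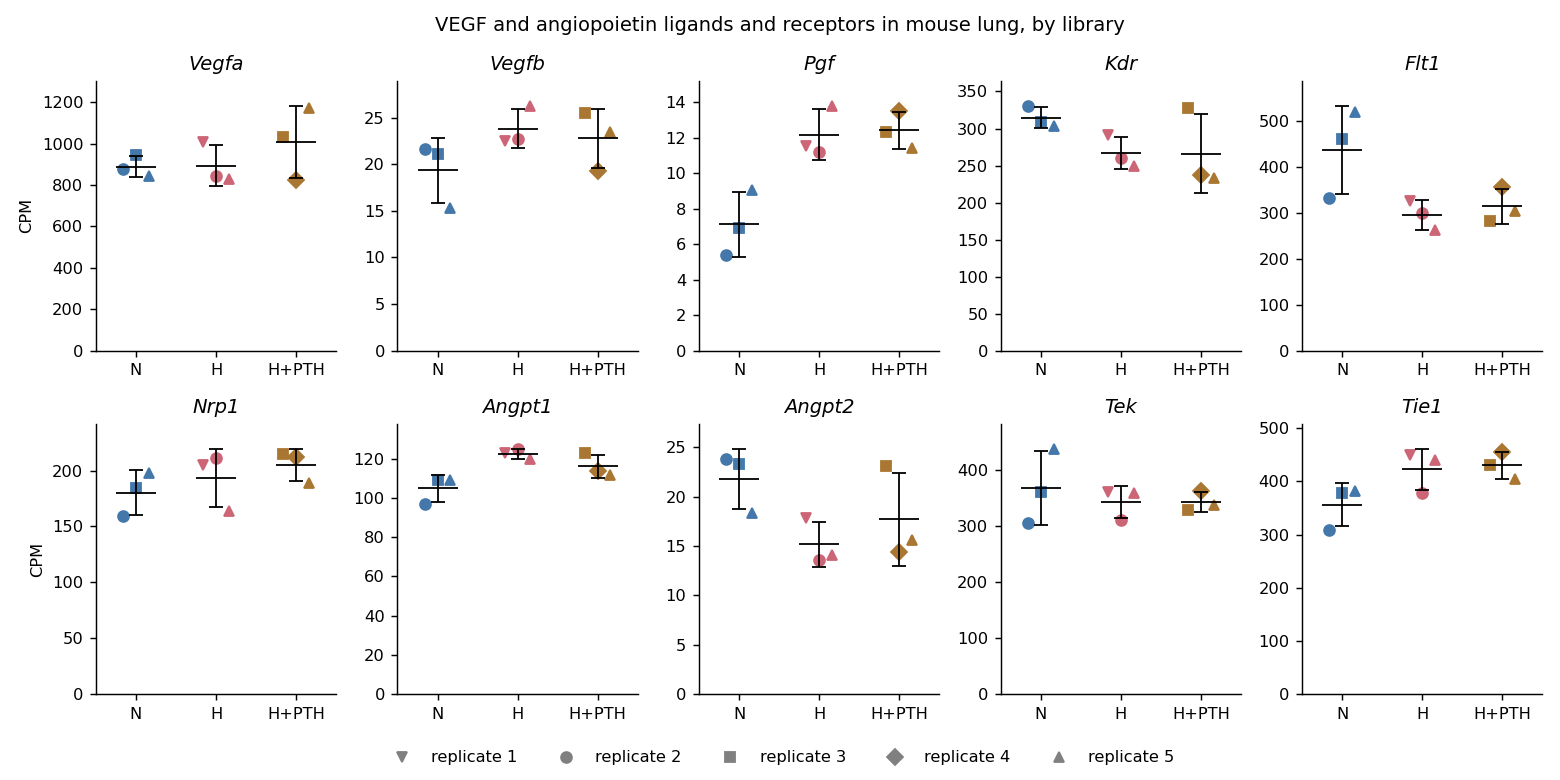
CPM of each gene in normoxia (N), hypoxia (H) and hypoxia with PTH (H+PTH), with 1 point per library, shape for the replicate number, and a bar for the mean with error bars of 1 SD (n = 3). In CPM, Pgf is higher and Flt1 and Angpt2 lower in all 3 hypoxia libraries than in all 3 normoxia libraries, the last pair overlapping in TPM, while Vegfa overlaps.

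Daily PTH was then assessed against hypoxia alone. None was detected in these genes: 0 of the 10 passed the edgeR test, where 0% of all genes passed, and 0 of the 10 had an unadjusted p under 0.05, against 9.31% of all genes. DESeq2 and limma-voom also called 0 of the 10, against 156 genes (0.794%) and 0 genes in all. All 10 pairs of groups overlapped in CPM and in TPM, where 13.9% and 11.7% of all genes did not. The log2 fold changes ran from -0.074 in Angpt1 to 0.23 in Angpt2, with edgeR adjusted p from 0.728 to 0.996.

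Vegfa stood at 1030, 826 and 1173 CPM in PTH replicates 3, 4 and 5, which includes the lowest and the highest CPM of the 9 libraries. Its log2 fold change against hypoxia was 0.17 (SE 0.13, -0.12 to 0.47, edgeR adjusted p = 0.728). Pgf stood at 12.3, 13.5 and 11.4 CPM with PTH, within the range of hypoxia alone (0.024, SE 0.18, -0.38 to 0.43, edgeR adjusted p = 0.988). Vegfb, at 25.5, 19.3 and 23.5 CPM, gave -0.067 (SE 0.15, -0.41 to 0.27, edgeR adjusted p = 0.943). Type 2 alveolar markers, 9 of 9 above 0 and 0 called by edgeR (8 at an unadjusted p under 0.05), summed to 22484 to 23725 CPM in hypoxia and 27548 to 30541 CPM with PTH, and type 1 markers to 8006 to 9485 and 8929 to 9656 CPM. Their part in the Vegfa values was not tested.

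Flt1 stood at 283, 357 and 303 CPM with PTH and gave 0.09 against hypoxia (SE 0.16, -0.27 to 0.45, edgeR adjusted p = 0.921). Kdr stood at 328, 237 and 233 CPM, and Angpt2 at 23.1, 14.4 and 15.6 CPM, so that PTH replicate 3 was the high library of its group for both. It lay within the normoxia range in CPM and above it in TPM, at 107 against 90.7 to 98.5 for Kdr and 18.4 against 13.4 to 17.3 for Angpt2. Kdr gave -0.0048 (SE 0.13, -0.30 to 0.29, edgeR adjusted p = 0.996) and Angpt2 0.23 (SE 0.19, -0.20 to 0.66, edgeR adjusted p = 0.772). Without PTH replicate 3 the Angpt2 value was -0.015. Angpt1 (123, 114 and 112 CPM), Nrp1 (215, 212 and 189 CPM), Tek (328, 362 and 338 CPM) and Tie1 (431, 455 and 404 CPM) all lay near their hypoxia values, with intervals within -0.28 and 0.35. All PTH libraries had low clock scores while 2 of the 3 hypoxia libraries had high ones, so clock phase and PTH cannot be fully told apart.

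The comparison of hypoxia with PTH against normoxia shares its normoxia libraries with the first, so similar values are not independent evidence. By edgeR 0 of the 10 genes passed, against 1.74% of all genes (1.27% higher and 0.468% lower), and 3 had an unadjusted p under 0.05, against 17.2%. The groups did not overlap for 3 of the 10, Pgf, Angpt1 and Tie1, all higher, against 22.8% of all genes in either direction and 11.4% in this one. The same 3 were separate in TPM, where 22.6% of all genes were. DESeq2 called 1, Pgf (adjusted p = 0.0013), of 1417 genes in all (7.21%), and limma-voom called 0 of the 10 and 1.56% of all genes. Among marker genes not named elsewhere, Reln (lymphatic, 1.26), Col3a1, Npnt and Pdgfra (fibroblast, 1.33, 0.67 and 0.60) and Chil3 and Mrc1 (macrophage, 0.68 and 0.52) rose in this comparison (edgeR adjusted p from 0.016 to 0.0469). Values below 0 were given by 2 of 7 lymphatic, 3 of 9 fibroblast and 1 of 7 macrophage markers.

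Pgf gave 0.80 against normoxia, a fold of 1.74 (SE 0.18, 0.39 to 1.21, unadjusted p = 0.00143, edgeR adjusted p = 0.0618). It passed with the pan-endothelial score as a covariate (edgeR adjusted p = 0.0412) and without the filter on low counts (0.0358). It also passed without normoxia replicate 5 (1.01, edgeR adjusted p = 0.0306), but leaving out its highest normoxia library necessarily raises the difference. The normoxia libraries left, replicates 2 and 3, had high clock scores and all PTH libraries low ones. Clock phase and group cannot be told apart in that setting. With each library left out in turn the edgeR adjusted p of Pgf reached 0.155. Over all settings its value ran from 0.59 to 1.01 and its adjusted p reached 0.351. Flt1 gave -0.47 (SE 0.16, -0.84 to -0.11, edgeR adjusted p = 0.175), with PTH replicate 4 at 357 CPM above normoxia replicate 2 at 332 CPM. Tie1 gave 0.27 (SE 0.11, 0.035 to 0.51, edgeR adjusted p = 0.224), and Angpt1 0.15 (SE 0.073, -0.011 to 0.31, edgeR adjusted p = 0.327). The other values were 0.18 for Vegfa, 0.23 for Vegfb, 0.19 for Nrp1, -0.24 for Kdr, -0.30 for Angpt2 and -0.10 for Tek, with edgeR adjusted p from 0.386 to 0.742.

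**Figure D3:**
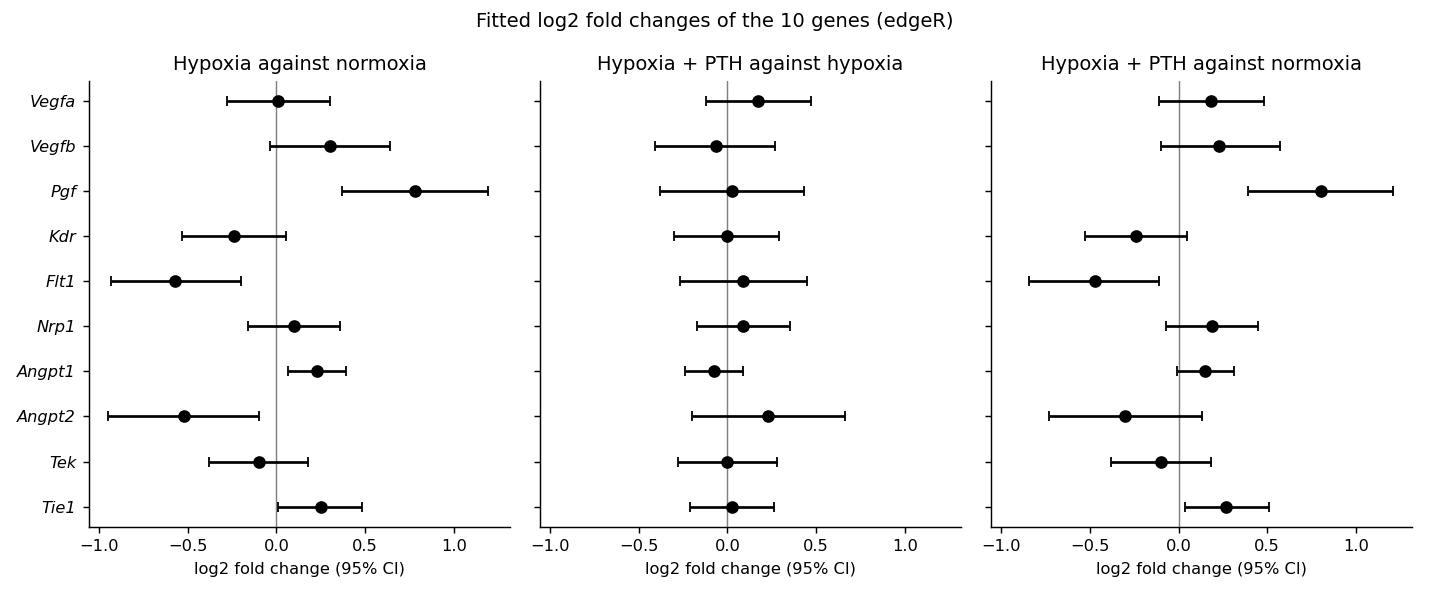
Fitted log2 fold change of each gene in the 3 comparisons with its 95% confidence interval. Against normoxia the intervals of Pgf lie above 0 and those of Flt1 below 0, none with an adjusted p under 0.05, and in hypoxia with PTH against hypoxia all 10 intervals include 0.

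Ratios of TPM within a library compare genes without the scaling between libraries. Tie1 to Tek was 0.968, 1.01 and 0.836 in normoxia, 1.20, 1.17 and 1.17 in hypoxia and 1.26, 1.20 and 1.15 with PTH. All 6 hypoxic libraries lay above all 3 normoxia libraries. The difference in log2 ratio was 0.34 between hypoxia and normoxia and 0.37 between hypoxia with PTH and normoxia. Angpt2 to Angpt1, antagonist to agonist, was 0.346, 0.301 and 0.237 in normoxia, 0.204, 0.153 and 0.166 in hypoxia and 0.265, 0.178 and 0.196 with PTH. Hypoxia lay below normoxia by 0.75 in log2 ratio, and with PTH the groups overlapped.

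Vegfa to Flt1 was 8.34, 6.44 and 5.13 in normoxia and 9.77, 8.90 and 9.99 in hypoxia, a log2 difference of 0.55, with 11.5, 7.28 and 12.2 with PTH. Vegfa to Kdr was 5.59, 6.42 and 5.86 in normoxia, 7.32, 6.85 and 6.99 in hypoxia and 6.61, 7.35 and 10.6 with PTH, so all 6 hypoxic libraries were higher in ligand per receptor mRNA. Relative to the mean of the pan-endothelial markers, Flt1 was 0.417, 0.483 and 0.502 in normoxia, 0.358, 0.370 and 0.254 in hypoxia and 0.336, 0.354 and 0.286 with PTH. On this scale all 6 hypoxic libraries were below normoxia, by 0.53 in log2 ratio for each group, and by 0.71 with PTH when the median of the markers was used. Pgf on the same scale was 0.0315, 0.0338 and 0.0408 in normoxia, 0.0589, 0.0648 and 0.0625 in hypoxia and 0.0679, 0.0620 and 0.05 with PTH, all 6 again higher.

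In a two-sided exact permutation test, each ratio whose groups did not overlap had p = 0.1, the smallest that 3 against 3 allows, and adjusted p = 0.425 over the 51 tests of 17 ratios. None of the ratios could pass 0.05 in this design. The ratio of Tie1 to the endothelial mean, 0.27 higher in hypoxia in log2 ratio, was 0.083 with the median of the markers.

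**Figure D4:**
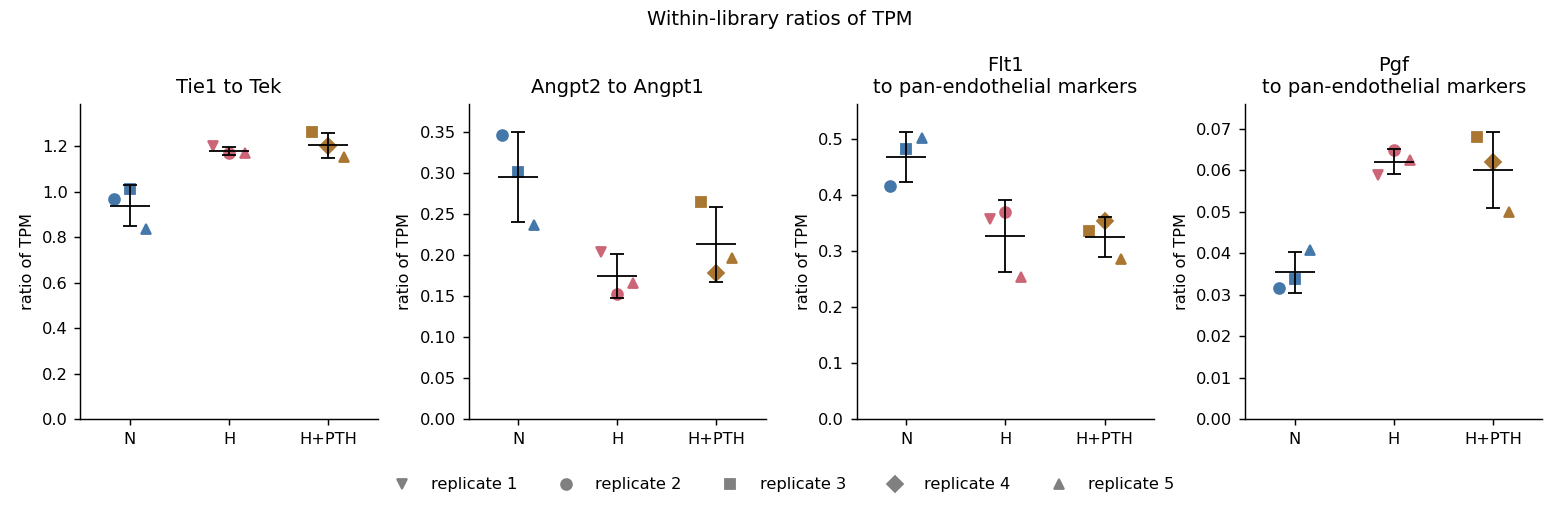
Ratios of TPM within each library in normoxia (N), hypoxia (H) and hypoxia with PTH (H+PTH), with 1 point per library and a bar for the mean with error bars of 1 SD (n = 3). Tie1 to Tek and Pgf to endothelial markers are higher, and Flt1 to endothelial markers lower, in all 6 hypoxic libraries. For Angpt2 to Angpt1 the hypoxia with PTH group overlaps normoxia.

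Other genes of the family and pathway were described from lists. For their counts at an unadjusted p under 0.05, the shares of all genes were 11.8% in hypoxia against normoxia, 9.31% in hypoxia with PTH against hypoxia and 17.2% in hypoxia with PTH against normoxia. Of 7 further family genes 0 passed edgeR in any comparison. At an unadjusted p under 0.05 there were 3 in hypoxia, 0 in hypoxia with PTH against hypoxia and 2 in hypoxia with PTH against normoxia. Vegfc, the lymphatic growth factor gene, stood at 13.3, 18.2 and 28.3 CPM in normoxia, 59.0, 40.8 and 48.3 CPM in hypoxia and 59.0, 54.7 and 37.6 CPM with PTH. Both hypoxic groups lay wholly above normoxia, with log2 fold changes of 1.31 (SE 0.28, edgeR adjusted p = 0.0853) and 1.34 (SE 0.28, edgeR adjusted p = 0.0524). Flt4, which encodes the receptor of VEGF-C, stood at 83.6, 94.4 and 114 CPM in normoxia and 65.2, 65.5 and 76.4 CPM in hypoxia (-0.49, SE 0.15, edgeR adjusted p = 0.196). Of 7 lymphatic markers, which include Flt4, 3 rose in hypoxia (Ccl21a, Prox1 and Mmrn1) and 2 had values below 0, Flt4 and Lyve1. Lyve1, the most abundant of the 7, stood at 604, 832 and 1022 CPM in normoxia and 171, 161 and 171 CPM in hypoxia (-2.29, SE 0.39, edgeR adjusted p = 0.0529). With it the summed level was lower, at 947 to 1313 CPM in normoxia, 601 to 628 CPM in hypoxia and 616 to 873 CPM with PTH, and the part of these cells in the Vegfc and Flt4 values was not tested.

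A list of 25 genes that respond to VEGF in endothelial cells, members of the family left out, was chosen with earlier results of these data known. Its counts and medians are therefore descriptions and not independent evidence. In hypoxia 3 fell (Esm1, Plvap and Dll4) and 0 rose, against 0.158% and 0.412% of all genes. The median log2 fold change was -0.15 against -0.0015 over all genes. Esm1, which encodes a secreted proteoglycan of endothelial tip cells, stood at 70.7, 44.0 and 34.9 CPM in normoxia and 4.33, 4.87 and 5.46 CPM in hypoxia (-3.35, SE 0.30, edgeR adjusted p = 0.00212). Dll4, a Notch ligand gene that VEGF signalling induces, stood at 106, 120 and 95.5 CPM in normoxia and 55.0, 40.6 and 47.6 CPM in hypoxia (-1.17, SE 0.14, edgeR adjusted p = 0.00485). Plvap, the gene of the diaphragm protein of fenestrae and caveolae, stood at 469, 580 and 657 CPM in normoxia and 90.8, 58.6 and 114 CPM in hypoxia (-2.70, SE 0.26, edgeR adjusted p = 0.0029). With PTH the values were 7.04, 5.89 and 10.8 CPM for Esm1 and 41.3, 36.2 and 47.1 CPM for Dll4, below every normoxia library. In hypoxia with PTH against normoxia, Esm1, Plvap and Dll4 fell (-2.66, -2.19 and -1.37, edgeR adjusted p = 0.00384, 0.0049 and 0.00215). Unc5b, a netrin receptor gene of endothelial tip cells, rose by 0.88 in the same comparison (SE 0.14, edgeR adjusted p = 0.0161). In hypoxia with PTH against hypoxia 0 of the 25 passed edgeR, with 8 at an unadjusted p under 0.05, 20 above 0 and a median of 0.31 against -0.01 over all genes. The smallest p values were those of Adamts1, an extracellular protease gene, at 213, 212 and 320 CPM with PTH and 137, 172 and 146 CPM in hypoxia (0.71, SE 0.17, edgeR adjusted p = 0.426), and Unc5b (0.48, SE 0.13, edgeR adjusted p = 0.43).

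Of 30 genes that carry the signal of VEGF receptors, 0 passed in hypoxia by edgeR, with 7 at an unadjusted p under 0.05. The smallest p values were those of Shb, an adaptor gene (-0.35, SE 0.084, edgeR adjusted p = 0.111), and Nos3, the endothelial nitric oxide synthase gene, which stood at 32.8, 41.3 and 43.7 CPM in normoxia and 61.3, 58.3 and 78.3 CPM in hypoxia (0.75, SE 0.19, edgeR adjusted p = 0.124). In hypoxia with PTH against normoxia, Grb10, an adaptor gene, rose by 0.51 (SE 0.097, edgeR adjusted p = 0.0329). Of 25 tested genes for matrix, semaphorin and decoy partners of VEGF, 0 passed in hypoxia by edgeR, with 5 at an unadjusted p under 0.05, and 2 rose with PTH against normoxia. These were Hspg2, the gene of the heparan sulfate proteoglycan perlecan (0.65, SE 0.092, edgeR adjusted p = 0.0123), and Sema3c, a semaphorin gene whose product binds neuropilins (1.35, SE 0.24, edgeR adjusted p = 0.0304). Sema3c already stood at 893, 789 and 768 CPM in hypoxia alone against 219, 287 and 472 CPM in normoxia (1.32, SE 0.24, edgeR adjusted p = 0.0553), and Hspg2 at 322, 268 and 321 CPM against 217, 217 and 246 CPM (0.42, SE 0.092, edgeR adjusted p = 0.0829).

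Of 18 genes of the axis of the Tek product and FOXO1, 0 passed edgeR in any comparison, with 2, 4 and 5 at an unadjusted p under 0.05 in hypoxia, with PTH against hypoxia and with PTH against normoxia. In hypoxia the smallest p was that of Grb14, an adaptor gene, at 58.8, 65.2 and 45.3 CPM in normoxia and 30.3, 27.5 and 29.8 CPM in hypoxia (-0.95, SE 0.19, edgeR adjusted p = 0.0615), followed by Itgb1, an integrin gene (0.22, SE 0.085, edgeR adjusted p = 0.335). Of 17 genes of HIF factors, oxygen sensors and HIF targets other than Vegfa, 0 passed edgeR in any comparison, with 2, 2 and 3 at an unadjusted p under 0.05 in the same order, and their median in hypoxia was 0.04. Bnip3, a mitophagy gene and HIF target, gave 0.30 (SE 0.1, edgeR adjusted p = 0.248). Egln1, a prolyl hydroxylase gene that HIF induces, gave 0.19 (SE 0.067, edgeR adjusted p = 0.266). Of 16 other growth factor ligands of endothelium, Cxcl12 rose in hypoxia and with PTH against normoxia (1.86, SE 0.22, edgeR adjusted p = 0.00599, and 2.14, SE 0.22, edgeR adjusted p = 0.00287), and Efna1 fell with PTH against normoxia (-0.78, SE 0.12, edgeR adjusted p = 0.0171).

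Across the 9 libraries the 10 genes did not vary as a block. Pairs with the closest profiles were Kdr with Angpt2 and Pgf with Tie1, each with a Pearson r of 0.90 of log2 CPM, and the most opposed were Vegfb and Flt1 at -0.88. These are descriptions over 9 libraries that include the group differences. Likeness was searched among 11767 named genes with a mean of at least 5 CPM. With so many genes and 9 libraries, each of the 10 members had a closest match with r of at least 0.941. The profile most like that of Pgf was Tmem44 (r = 0.975), followed by Bnip3 (0.974), and Cabp1 (0.973). For Flt1 the closest were Sec14l1 (0.973), Kcnq5 (0.963) and Ctnnd1, the p120 catenin gene (0.961). For Angpt1 they included Tbc1d5 (0.956) and Egln1 (0.953), and for Angpt2 they were Zfp639 (0.971), Trim28 (0.968) and Srfbp1 (0.960).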

How the data were processed

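Per the submitters' processing notes, reads were handled with STAR 2.7.9a and Trimmomatic 0.39 and the build was mm10, while no source used here names the read counter or its strand setting. As deposited, the values are estimated counts (expected counts), of which 11.4% above 0 are whole, and log2 TPM by the authors, with values at or below 1 TPM set to 0. Of the whole counts of 1 to 20, 88.8% are even. After rounding, counts went into edgeR 4.0.16 under R 4.3.3 (TMM, filterByExpr with minimum count 10, 1 model of all 9 samples, quasi-likelihood F test, Benjamini-Hochberg over all 19640 genes tested). CPM use TMM library sizes, except summed marker levels, which use total counts. Alternatives used DESeq2 1.42.0 and limma 3.58.1. Named genes are all 10 members, and for each other list the called genes or else the 2 with the smallest p, except that cell type lists with no call are given by their sums alone where they bear on a member. The members and lists were chosen with earlier results of these data known. For likeness of profile the rule takes the 3 genes with the highest Pearson r, of which 1 is not reported here. Library scores are means of centred log2 CPM. Scripts were tested on simulated data.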

Additional observations from a re-analysis of the deposited data

How the results depend on the processing

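With 3 libraries per group the 95% intervals of the 10 genes are wide, and differences smaller than them were not detectable. Of the 30 log2 fold changes, 387 values under other settings kept direction and call, 26 reversed and 7 passed the threshold, and with 1 library left out 248 kept both, 21 reversed and 1 passed. The cause was not tested. Genes called in hypoxia against normoxia numbered 112, and 791 with DESeq2, 198 without the filter, 210 with the pan-endothelial covariate, 324 at an adjusted p under 0.1, and 39 and 37 with limma-trend on log2(TPM + 1) and log2(TPM + 0.1). In hypoxia with PTH against hypoxia they numbered 0, and 156 with DESeq2 and 1 and 1 with limma-trend. In hypoxia with PTH against normoxia they numbered 341, and 1417 with DESeq2, 76 with the clock covariate, 157 with the muscle and fat covariate, 833 at an adjusted p under 0.1, and 164 and 156 with limma-trend.

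Among the 10 genes, 2 were called in hypoxia with DESeq2 and 1 (Pgf) with the pan-endothelial covariate. In hypoxia with PTH against normoxia 1 (Pgf) was called with DESeq2, without the filter, with that covariate and at an adjusted p under 0.1. Directions that reversed, in hypoxia with PTH against hypoxia, were Tek 0.0044 and Kdr 0.0025 with DESeq2, 0.0044 and 0.0024 with its size factors, and 0.027, 0.027, 0.0075 and 0.0074 with limma-trend. With the clock covariate Tie1 was -0.042, Kdr 0.058 and Pgf -0.24, and Vegfa -0.0016 in hypoxia against normoxia. With the muscle and fat covariate Tie1 was -0.045, Kdr 0.011, Flt1 -0.073, Pgf -0.034, Vegfa -0.0081 and Vegfb 0.028, and with the pan-endothelial covariate Tie1 -0.011, Kdr 0.04 and Pgf -0.045.

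Replicate numbers in the titles are not stated to pair the samples. Residual correlations of same-numbered samples ran from -0.0969 to 0.143, and those of other pairs across groups from -0.267 to 0.271. With 3 libraries per group these values cannot settle whether samples were paired. With the replicate block, which leaves 2 residual degrees of freedom, 8 genes were called in hypoxia and 17 with PTH against normoxia. Under the block Vegfa was -0.088 in hypoxia, and Tie1 -0.11, Kdr 0.081, Flt1 -0.054 and Pgf -0.26 with PTH against hypoxia.

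With 1 library left out, 50 to 156 genes were called in hypoxia (50 without normoxia replicate 3, 52 without hypoxia replicate 1, 70 without hypoxia replicate 5), 0 to 1 with PTH against hypoxia and 79 to 361 with PTH against normoxia (79 and 83 without normoxia replicates 2 and 3, 189 and 83 without PTH replicates 4 and 5), with 0 to 1 of the 10 genes in the last. Ranges that crossed 0 were Tek -0.22 to 0.043 and Vegfa -0.086 to 0.066 in hypoxia, Tek -0.22 to 0.04 with PTH against normoxia, and with PTH against hypoxia Tek -0.071 to 0.037, Kdr -0.18 to 0.082, Pgf -0.041 to 0.13, Tie1 -0.047 to 0.072, Nrp1 -0.012 to 0.15, Vegfb -0.16 to 0.04, Angpt2 -0.015 to 0.36 and Flt1 -0.011 to 0.17. With the median of the endothelial markers, Tek to markers was -0.25 in hypoxia and -0.35 with PTH against normoxia. Separation of groups in TPM was an alternative chosen after seeing the data, and gave 4 genes in place of 6 in hypoxia.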
